A study of Mus musculus with 10 samples.

Results

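Venous blood endothelial cells (BECs) of mouse ear skin were followed as the wells of single-cell plates whose RNA carried the venular genes Ackr1 and Selp. A well was kept with at least 50000 reads, at least 200 genes and at most 10% mitochondrial reads, and was a BEC when counts per 1000000 reads (CPM) of Flt1, Emcn and Podxl together reached 300 and exceeded those of Prox1, Flt4 and Mmrn1. A BEC was venous when Ackr1 and Selp together reached 100 CPM, Apln was under 50 CPM and 7 mitotic genes (Mki67, Top2a, Ccnb1, Ccnb2, Cdk1, Cdc20 and Prc1) together were under 500 CPM. This left 199 venous BECs among 1490 BECs and 3248 kept wells. The other 1291 BECs of the same mice were the comparison, and lymphatic endothelial cells (LECs) were taken by the mirrored rule (1641 wells). The wells were thus chosen by the measured CPM of 16 genes, so their levels are given as a description without a test. A gene whose RNA moves with any of them from well to well differs by that choice, so the tests below describe the wells the rule picks out and do not show that they are a separate type.

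Cells had been sorted on Podoplanin and CD31 from ears of 5-wk-old mice after exclusion of CD45+, CD11b+, Ter119+ and dead cells, and sequenced by Smart-Seq2, a full-length method without molecular barcodes, in 384-well plates. The 5 mutant mice carried Pik3ca H1047R, a chicken PIK3CA sequence with an activating kinase change that is silent in the Rosa26 locus until Cre acts, and Cdh5-CreERT2, a Cre that 4-hydroxytamoxifen (4-OHT) activates in all endothelium, so LECs and BECs of a mutant ear were both targets. They had received 4-OHT on the ear skin at 3 wk of age (10 mg/ml in acetone). Control 1 was an untreated C57BL/6J mouse, and control 2 was a Cre-negative littermate of the Pik3ca H1047R;Cdh5-CreERT2 cross given 4-OHT, so the controls differ from each other in treatment and in the cross they came from. Per the methods all mice were on a C57BL/6J background. Mutants 3 and 5 had 2 plates each, which were joined, since the mouse is the replicate. By their plate numbers, mutants 1–4 belong to 1 series of plates and mutant 5 and both controls to another, so genotype and plate series cannot be told apart for 4 of the 5 mutants. Every sample is labelled as sorted LECs, although per the methods both LECs and BECs were sorted. BECs made up 1490 of the kept wells. The third control mouse and the level of the transgene were not analysed here. Column names mark duplicate reads as removed on all plates but that of control 2, whose table has another layout, so a difference in counting cannot be told apart from that mouse. The labels name no litters, and p-values measure the spread between these 7 mice.

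Postcapillary venules are the segment where plasma proteins and leukocytes leave the blood in inflamed skin. ACKR1 (Ackr1, chr1:173331886-173333750, GRCm38) is an atypical receptor that binds and carries chemokines across the venular wall without signalling. P-selectin (Selp, chr1:164115264-164150026) is stored with von Willebrand factor (VWF) in the Weibel-Palade bodies of endothelium and captures rolling leukocytes when it reaches the surface. Veins are also the vessels in which activating PIK3CA mutations form venous malformations.

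The venous wells held a median of 240908 reads and 5339 genes, close to the 260284 reads and 5536 genes of the other BECs, and their sums per mouse held 3576210–14304068 reads. The label was compared with marker lists, in plain sums of reads. The venous list holds Ackr1 and Selp, which chose the wells, with Vwf, Lrg1 and Aqp1, so part of its level was fixed. It summed to 9577–10558 CPM in control and 9462–13993 CPM in mutant venous BECs, against 2808–4217 and 4546–5687 CPM in the other BECs and 785–1348 and 846–1029.9 CPM in LECs. Of the genes outside the rule, Vwf was at 1406–2473 CPM in control and 1876–2587 CPM in mutant venous BECs, against 3.66–65.9 CPM in LECs of the 7 mice. Lrg1 and Aqp1 were at 1903–2911 and 3486–5766 CPM in venous BECs and at 298–668 and 357–602 CPM in LECs. In controls 1 and 2 LECs held more Lrg1 (668 and 421 CPM) than the other BECs (436 and 283 CPM). Capillary markers summed to 1337–2105 CPM in control and 1634–2497 CPM in mutant venous BECs. The other BECs held 5158–5738 and 2474–3957 CPM, so the mutant ranges overlapped. Angiogenic markers, a list that shares Apln with the rule, were at 43.4–160 and 248–446 CPM, against 313–564 and 822–1572 CPM. Arterial markers were low (224–334 and 245–388 CPM, against 1181–1397 and 514–1008 CPM in the other BECs), and lymphatic markers summed to 283–390 and 72.3–516 CPM. The lymphatic list shares Prox1, Flt4 and Mmrn1 with the rule, so its gap to LECs (7205–10848 CPM) was largely fixed. Of its genes outside the rule, Lyve1 was at 10.8–88.9 CPM in venous BECs and 1228–2562 CPM in LECs, and Reln at 1.18–13.4 and 295–1017 CPM. Immune markers totalled 0.377–7.06 CPM, with Cd207 at 0 in all 7 mice, and platelet markers 11.8–26.6 CPM. Fibroblast markers differed between the groups, with 2516 and 4691 CPM in the control sums and 1.51–310.0 CPM in the mutant sums. In each control mouse 1 well gave most of these reads (93.9% and 98.0% of the list), and its part in the comparison of genotypes is given below. Fibroblast markers were also higher in the controls outside these wells. The other BECs held 357–735 CPM in control and 19.2–57.8 CPM in mutant mice, and LECs 243–455 and 26.9–127 CPM. The median venous well held 131 and 14.3 CPM in controls 1 and 2 and 0–3.56 CPM in the mutants. Mural markers were at 778–832 and 349–781 CPM and keratinocyte markers at 49.5–450.0 and 23.6–507 CPM. Much of the mural sum was Tagln, at 617–660 CPM in control and 333–463 CPM in mutant venous BECs. In the other BECs Tagln was at 169–210 and 71.2–105 CPM. In 33 of the 199 wells Prox1, Krt14, Ptprc, Col1a1 and Rgs5 together reached 100 CPM, so that these wells may hold RNA of another cell. They were more frequent in the controls: leaving them out kept 8 of 20 and 11 of 16 venous wells in controls 1 and 2. Mutants 1–5 kept 33 of 35, 22 of 23, 35 of 38, 18 of 19 and 39 of 48.

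Levels of Ackr1 and Selp chose the wells and are given as a description. Among the 837 BECs within the Apln and mitotic limits, 601 had under 50 CPM of both genes together, 37 had 50 to under 100 CPM, 9 had 100 to under 200 CPM and 190 had 200 CPM or more. The 5 wells nearest below the limit held 89.3–98.7 CPM and the 5 nearest above it 102.1–151.6 CPM. Over the 199 venous BECs the sum ran from 102.1 to 11286 CPM with a median of 2332 CPM. Both genes reached 50 CPM in 144 wells (72.4%), while Ackr1 was under 50 CPM in 41 wells (20.6%) and Selp in 14 (7.04%). Wells with little Ackr1 still carried the other venous genes, with median levels of 1706 CPM for Lrg1 and 1553 CPM for Vwf, against 2797 and 1987 CPM where both genes were present. Lbp was lower where either gene was under 50 CPM. Its median was 46.3 CPM with little Ackr1 and 42.9 CPM with little Selp, against 609.6 CPM with both genes.

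Genes outside the rule changed along the bins of Ackr1 and Selp, some between the bins on either side of the limit and others below it or gradually. The median of Lrg1 over wells went up from 16.5 CPM in BECs without a read of Ackr1 or Selp to 39.2, 169, 1345 and 2879 CPM in the bins above. Vwf followed the same order, from 30.3 to 1987 CPM. The chemokine gene Cxcl12 went the other way, with medians of 3579, 3274 and 3065 CPM below the limit and 524 and 319.7 CPM above it. The tight-junction gene Cldn5 dropped between the same bins, from 1465 to 189.7 CPM, and so did the fatty acid receptor gene Cd36, from 2625 to 157 CPM. Other genes did not change at the limit alone. Aqp1 went up gradually, with medians of 1072, 1501, 2718, 3195 and 5145 CPM. Rgcc was already low at 50 to under 100 CPM (244, 30.0 and 3.42 CPM from the second to the fourth bin), and Il6st had 176, 123, 722 and 2582 CPM from the second bin on. These medians pool wells of all mice and are a description, and the 37 wells at 50 to under 100 CPM were shallower than the rest (median 129066 reads).

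**Figure D1:**
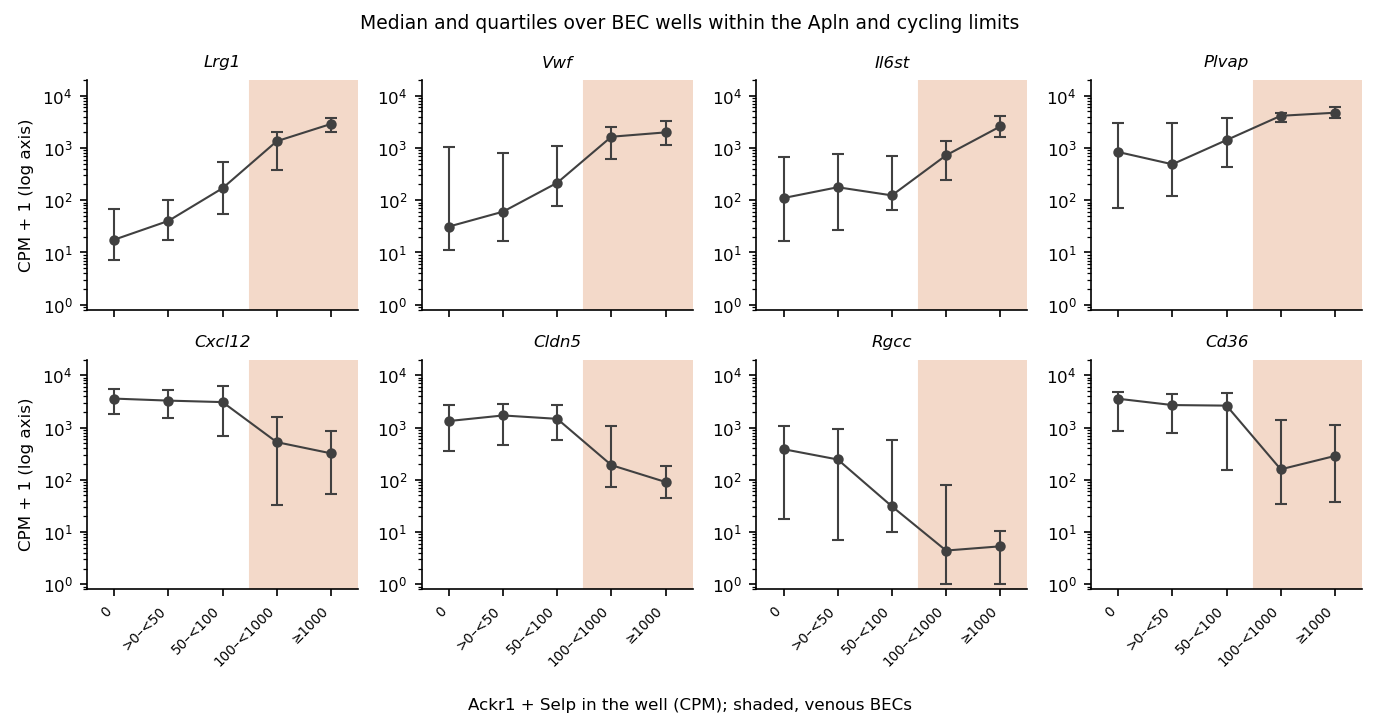
Median and quartiles of 8 genes (CPM + 1, log axis) over BEC wells within the Apln and mitotic limits, binned by the sum of Ackr1 and Selp in the well, with the venous BECs shaded. Lrg1 reaches 2879 CPM in the highest bin from 16.5 CPM in the lowest, and Cxcl12 and Cldn5 drop at the limit of 100 CPM.

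Venous BECs were a share of all BECs that overlapped between mutant and control mice. They were 20 of 159 BECs in control 1 (12.6%, 95% Wilson interval 8.29–18.6), 16 of 157 in control 2 (10.2%, 6.37–15.9), 35 of 183 in mutant 1 (19.1%, 14.1–25.4), 23 of 184 in mutant 2 (12.5%, 8.48–18.1), 38 of 330 in mutant 3 (11.5%, 8.51–15.4), 19 of 174 in mutant 4 (10.9%, 7.10–16.4) and 48 of 303 in mutant 5 (15.8%, 12.2–20.4). The intervals cover counting error only. The mutant mean of 14.0% ± 3.45 (SD, n = 5) was 2.60 percentage points above the control mean of 11.4% (n = 2), and the groups overlapped (two-sided exact permutation test over mice, p = 0.476). With 5 against 2 mice this test cannot give a p below 0.0952. Within the plate series that holds both genotypes, mutant 5 was at 15.8% and the controls at 12.6% and 10.2%.

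The share depends on the denominator, because many BECs of mutant ears with Ackr1 and Selp were removed by the Apln limit. Without the Apln and mitotic limits, BECs with Ackr1 and Selp at 100 CPM or more were 17.6% and 12.1% of the BECs of controls 1 and 2 and 55.7%, 47.8%, 48.5%, 39.1% and 45.2% of those of mutants 1–5, with no overlap (difference 32.4 points, exact permutation p = 0.0952, the smallest possible). Of these wells, Apln, the ligand of the apelin receptor and a marker of angiogenic tip cells, was at 50 CPM or more in 28.6% and 15.8% in the controls and in 64.7–75.6% in the mutants. The mitotic limit removed none of the 28 and 19 such wells of the controls, which allows up to 12.1% and 16.8% by the Wilson interval, and 1.47–9.09% of those of the mutants. Among BECs within both limits, venous BECs were 14.1% and 12.7% in the controls and 38.5%, 27.1%, 27.1%, 19.4% and 31.0% in mutants 1–5 (difference 15.2 points, exact permutation p = 0.0952). So the venous BECs described here are 71.4% and 84.2% of the Ackr1- and Selp-positive BECs of the controls but 23.8–35.0% of those of the mutants. The wider set of wells was looked at after the data were seen.

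**Figure D2:**
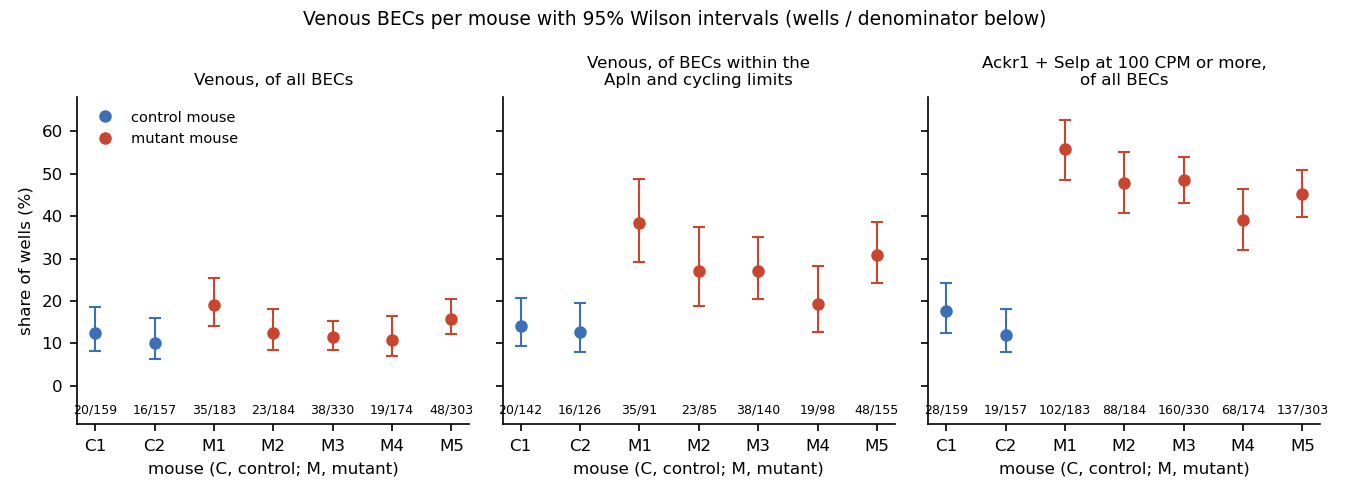
Share of wells per mouse (%, point) with its 95% Wilson interval (bar), for control (C1, C2) and mutant mice (M1–M5), and the wells and denominator below each point. Venous BECs are 10.2–12.6% of all BECs in control and 10.9–19.1% in mutant mice, whereas all BECs with Ackr1 and Selp at 100 CPM or more are 12.1–17.6% and 39.1–55.7%.

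Between venous and other BECs of the same mice, 6 of 16 venous identity genes and 5 of 25 cytokine receptor and NF-kB genes were called higher, and 6 of 22 arterial, 8 of 18 capillary and 5 of 22 tip genes were called lower, with 1 capillary gene, Fabp4, called higher. Adhesion genes (3 of 18 higher) and tone and permeability genes (5 higher and 4 lower of 24) had median log2 fold changes of 0.01 and -0.18. Reads were summed per mouse over venous and over other wells and compared with edgeR's quasi-likelihood test with the mouse as a block. Of 14723 genes tested, 443 were called at an adjusted p under 0.05 (3.01%), of which 207 were higher (1.41% of genes) and 236 lower (1.6%). The median log2 fold change of all genes was -0.25. Leaving out mutant 1, 2, 3 or 4 lowered the count of calls to 275, 210, 183 and 238, in that order. A total of 2288 genes had an unadjusted p under 0.05, and 7.82% of all genes had the same sign in all 7 mice.

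Of 16 genes of a venous identity list that the rule did not use, 6 were called higher and 0 lower, against 1.41% of all genes called higher. The list was chosen with earlier results of these data known. Its median log2 fold change was 0.84. Lrg1 (chr17:56119678-56122001), the leucine-rich alpha-2-glycoprotein that modulates TGF-beta signalling in vessels, ranged from 1953 to 3146 CPM (median 2636) in venous BECs and from 266 to 1118 CPM (median 702) in the other BECs (log2 fold change 2.02 ± 0.17 SE, adjusted p = 0.000532). The lowest venous sum of Lrg1 lay above the highest sum of the other BECs. Vwf ranged from 1443 to 2796 CPM (median 2260.2) in venous BECs and from 589 to 1647 CPM (median 1143) in the other BECs (log2 fold change 1.05 ± 0.12 SE, adjusted p = 0.00195). The water channel gene Aqp1 ranged from 3461 to 6231 CPM (median 4739) in venous BECs and from 1765 to 2803 CPM (median 2022) in the other BECs (log2 fold change 1.17 ± 0.13 SE, adjusted p = 0.00195). Plvap, which builds the diaphragms of fenestrae and caveolae, was at 3733–6021 against 1821–3541 CPM (log2 fold change 0.87 ± 0.07 SE, adjusted p = 0.000411), with all venous sums above all others. The interleukin-1 receptor gene Il1r1 (log2 fold change 1.51) and the cyclooxygenase gene Ptgs1 (1.41) completed the 6. Slco2a1, the prostaglandin transporter (log2 fold change 1.08 ± 0.40 SE, adjusted p = 0.215), and Ephb4, a receptor of venous identity (log2 fold change -0.00 ± 0.10 SE, adjusted p = 0.992), were not called. Slco2a1 was at 872 and 668 CPM in the venous and 132 and 69.1 CPM in the other BECs of the controls, and at 487–1342 and 551–822 CPM in those of the mutants, so that both control mice, but not all mutants, had far more in venous BECs.

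Of 18 tested leukocyte adhesion genes, 3 were called higher and 0 lower (median log2 fold change 0.01), against 1.41% of all genes called higher. Sele (chr1:164048234-164057677), the cytokine-induced E-selectin, ranged from 276 to 674 CPM (median 299) in venous BECs and from 11.5 to 200.5 CPM (median 135) in the other BECs (log2 fold change 2.19 ± 0.49 SE, adjusted p = 0.0436). After each well was thinned to 50000 reads, a median over mice of 58.3% of venous wells held a Sele read, against 32.2% of other BECs and 5.18% of LECs (68.6%, 54.8% and 24.0% unthinned, at median depths of 240908, 260284 and 334672 reads). Sele kept its call in 9 of 20 alternative settings, with adjusted p from 5.87e-05 to 0.123, and leaving out either control or any of mutants 1–4 ended it (adjusted p of 0.056–0.123). Icam1, the ligand of leukocyte beta-2 integrins, was at 492–1148 against 109–431 CPM (log2 fold change 1.38 ± 0.17 SE, adjusted p = 0.0033), and all venous sums lay above all others. The third called gene, Pecam1, differed little in size (log2 fold change 0.37 ± 0.08 SE, adjusted p = 0.0411) and kept its call in 10 of 20 settings, with a log2 fold change down to 0.11 (adjusted p = 0.541) without the Apln and mitotic limits. Esam (0.23) and Cd34 (0.02), 2 abundant surface genes of endothelium, were not called, with adjusted p of 0.291 and 0.95.

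Among 25 receptors of inflammatory cytokines and NF-kB genes, 5 were called higher and 0 lower (median log2 fold change 0.32). Over all genes 1.41% were called higher. The largest change was that of Il6st (chr13:112464070-112510086), which encodes gp130, the signalling subunit shared by receptors of the interleukin-6 family. It ranged from 1172 to 3697 CPM (median 2943) in venous BECs and from 375 to 931 CPM (median 695) in the other BECs (log2 fold change 1.90 ± 0.12 SE, adjusted p = 4.11e-05). Its partner Lifr, the leukaemia inhibitory factor receptor, was higher too (log2 fold change 1.06 ± 0.15 SE, adjusted p = 0.00619), while Osmr, the oncostatin M receptor, was not called (log2 fold change 0.53 ± 0.26 SE, adjusted p = 0.372). Venous sums of Osmr lay below those of the other BECs in both controls (195 against 364 and 322 against 419 CPM) and above them in all 5 mutants. Nfkbia, the NF-kB inhibitor and a target of that pathway (0.63), and Tnfrsf1a, a TNF receptor (0.56), were the other 2 besides Il1r1. Ifngr1 was not called (-0.05).

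The 10 called genes with the largest increase among those with the same sign in all 7 mice included several with a role in the same setting. Nt5e (CD73), which makes adenosine from AMP, ranged from 158 to 512 CPM (median 259) in venous BECs and from 0.126 to 33.8 CPM (median 23.4) in the other BECs (log2 fold change 4.07 ± 0.67 SE, adjusted p = 0.0119). Every venous sum of Nt5e was above every sum of the other BECs, with a gap from 33.8 to 158 CPM. Lbp, the lipopolysaccharide-binding protein, was at 572–973 against 25.5–415 CPM (log2 fold change 2.28 ± 0.36 SE, adjusted p = 0.00958), but it was higher still in LECs (968–1376 CPM as plain sums), so it is not particular to venous BECs. Ptafr, the receptor of platelet-activating factor, was at 18.9–218 against 3.84–16.1 CPM, Serping1, the C1 inhibitor, at 122–335 against 16.9–69.3 CPM, and Fgl2, a fibrinogen-like protein, at 94.8–363 against 15.1–145 CPM. Their log2 fold changes were 2.86, 2.69 and 2.29. The protocadherin gene Pcdh7 had the largest log2 fold change, 4.75 ± 0.75 SE (13.2–172 against 0–8.98 CPM), followed by the matrix glycoprotein gene Emilin2 (4.51 ± 0.78 SE, 21.2–119 against 0.176–8.72 CPM). The remaining 3 were Lrrc1 (3.27), Tbc1d8 (2.32) and the Ras GTPase activator gene Rasal1 (2.27). Some venous sums of these genes rest on single wells. In control 2, 1 well gave 100% of the Pcdh7, 99.2% of the Lrrc1, 87.2% of the Rasal1 and 67.0% of the Nt5e reads. In control 1, 1 well gave 90.5% of the Pcdh7 and 83.3% of the Ptafr reads. In each of mutants 2 and 4, 1 well gave 100% of the Emilin2 reads. An exon of Pcdh7 and one of Tbc1d8 overlap genes on the opposite strand, and the kit does not keep strand.

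Of 20 genes of Weibel-Palade bodies and their release that could be tested, only Vwf was called (median log2 fold change 0.04). The shares over all genes were 1.41% higher and 1.6% lower, for this and the next 2 lists. Igfbp7, a cargo protein of these granules, was abundant in both sets (1827–2988 against 1780.4–2630.4 CPM) and not called (0.13). Of 18 hemostasis genes 3 were called higher and 0 lower: Vwf, the anticoagulant cofactor gene Pros1 (log2 fold change 0.62 ± 0.11 SE, adjusted p = 0.0166) and Entpd1, the ATP- and ADP-cleaving CD39 (log2 fold change 0.47 ± 0.09 SE, adjusted p = 0.0191). Among 24 genes of vascular tone and permeability, 5 were called higher (Aqp1, Plvap, Ptgs1, Npr1 and Ece1) and 4 lower. The lower ones were Cldn5, the main claudin of endothelial tight junctions, which was at 110.2–490.3 against 719–1235 CPM (log2 fold change -2.01 ± 0.24 SE, adjusted p = 0.00254), the caveolin gene Cav1 (-0.63), the protease receptor gene F2rl1 (-3.78) and the natriuretic peptide clearance receptor gene Npr3 (-4.93).

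Of 16 tested chemokine and cytokine genes, 0 were called higher and 2 lower (1.6% of all genes were called lower). Cxcl12 (chr6:117168535-117181367), which holds CXCR4-bearing cells near vessels, ranged from 436 to 1089 CPM (median 643) in venous BECs and from 1211 to 3844 CPM (median 1722) in the other BECs (log2 fold change -1.59 ± 0.09 SE, adjusted p = 3.71e-05), and was lower in venous BECs in 7 of 7 mice. The second was Ccl2 (log2 fold change -3.13 ± 0.70 SE, adjusted p = 0.0427). The scavenger receptor of CXCL12, Ackr3, was at 22.2 and 16.1 CPM in venous and 132 and 127 CPM in other BECs of the controls, whereas venous BECs of the mutants held 94.7–164 CPM and other BECs 153–181 CPM (log2 fold change -1.01 ± 0.39 SE, adjusted p = 0.237). Venous BECs thus had less Ackr3 in all 7 mice without a call. Cx3cl1 was not called (-1.45).

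Arterial and Notch genes were called lower in 6 of 22 and higher in none (median log2 fold change -1.03), against 1.6% of all genes called lower. The 6 were Hey1, Hey2, Gja4, Gja5, Sema3g and Unc5b. Gja5, the arterial connexin 40, was at 1.05–30.8 against 39.8–136 CPM (log2 fold change -3.93 ± 0.55 SE, adjusted p = 0.00619), and Gja4, connexin 37, at 1.92–41.9 against 79.6–299.9 CPM (log2 fold change -3.89 ± 0.43 SE, adjusted p = 0.00195). Sox18 (0.06) and Nrp1 (log2 fold change -0.65 ± 0.16 SE, adjusted p = 0.0612) were not called. Capillary genes were called lower in 8 of 18, with a median of -1.79, against the same 1.6% of all genes. Among them, Btnl9 was at 0.574–30.4 against 13.3–106 CPM, the glycerol channel gene Aqp7 at 1.53–96.5 against 100.1–414 CPM and the lipoprotein lipase gene Lpl at 1.68–108 against 46.3–331 CPM. Fabp4, a fatty acid carrier usually listed with capillaries, was called higher (log2 fold change 0.56 ± 0.07 SE, adjusted p = 0.00254), and Cd36 (377–1136 against 834–2456 CPM) and Cd300lg (624–1248 against 627–1402 CPM) were not called. Some of these sums rest on single wells: 97.5% of the Aqp7 reads in venous BECs of mutant 4 and 66.0% of those of control 1 came from 1 well each.

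The angiogenic tip list, without Apln, had 5 of 22 genes called lower and none higher (median -1.11), against 1.6% of all genes called lower. Esm1, the tip cell proteoglycan endocan, was at 0–2.12 against 5.35–182 CPM (log2 fold change -6.39 ± 0.68 SE, adjusted p = 0.00185). Venous BECs of mutants 4 and 5 had 0 Esm1 reads. Pgf, a VEGF family ligand, was at 0.287–2.92 against 5.68–39.3 CPM (log2 fold change -3.51 ± 0.64 SE, adjusted p = 0.0182), and Nid2, Col4a1 and Col4a2, of the basement membrane, were the other 3. Aplnr, the apelin receptor, did not follow its ligand (287–1397 against 460.3–949 CPM, log2 fold change -0.02 ± 0.20 SE, adjusted p = 0.975). The rule removes wells with Apln from venous BECs but leaves them in the other BECs. A low level of genes that go with Apln cannot be told apart from that choice. Esm1 was, however, lower in venous BECs in every mouse than in other BECs within the Apln and mitotic limits. Plain sums of the latter held 76.9 and 204 CPM in controls 1 and 2 and a median of 18.4 CPM in the mutants. Ackr1- and Selp-positive wells over the Apln limit held 1.05 and 0.951 CPM in the controls and at most 0.406 CPM in the mutants. Apln-positive wells under the Ackr1 and Selp limit held 54.3 and 143 CPM in the controls and 0.172–20.6 CPM in the mutants.

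Further genes among the 10 with the largest decrease were Pygm, Eps8l2, Slc26a10, Prnd, Car8, P2ry2, Ckap2 and Kcna5, with log2 fold changes from -6.20 to -5.61. P2ry2, a receptor of extracellular ATP and UTP, was at 0.522–18.9 against 60.3–127 CPM, and Eps8l2 at 0–10.8 against 61.5–139 CPM. Ckap2, a spindle gene, belongs with the mitotic genes of the rule: its level in the other BECs was 0.0731–2.99 CPM in the controls and 7.28–37.1 CPM in the mutants. Exons of Eps8l2 and Slc26a10 overlap genes on the opposite strand, and those of Prnd overlap Prn on the same strand.

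Over all genes 1.41% were called higher and 1.6% lower, and counts of 0 or 1 in the lists are to be read against those shares. In 35 PI3K and FOXO genes only Insr, the insulin receptor gene, was called (log2 fold change 1.35 ± 0.30 SE, adjusted p = 0.0381, 60.0–384 against 29.1–72.1 CPM). In 37 genes of metabolism and mTORC1 targets 2 were higher, the amino acid transporter gene Slc3a2 (0.70) and the asparagine synthetase gene Asns (1.05), and 1 lower, Mthfd2 (-5.01). Asns kept its call in 3 of 20 alternative settings (adjusted p up to 0.141), Slc3a2 in 14 (up to 0.221) and Insr in 12 (up to 0.168). Of 24 genes of G1 and DNA replication 2 were lower: Mcm5, of the replicative helicase (-4.89), and Ccnd1, cyclin D1 (-1.38). Ccnd1 lay lower in all 5 mutants (47.1–106 against 193–364 CPM) and nearly level in the controls (137 against 159 and 309 against 314 CPM). Antigen presentation and interferon genes had 1 of 29 higher, H2-T23 (0.71), and 1 lower, Bst2 (-0.66), and reads of H2 genes may be shared between close copies. Matrix genes went both ways, with 4 of 32 higher (Emilin2, Mgp, Col15a1 and Bgn) and 5 lower (Col4a1, Col4a2, Col18a1, Lama4 and Nid2). None of 19 immediate early genes was called (median 0.50). Fos was higher in venous BECs in 7 of 7 mice, at 282–1694 against 138–817 CPM (log2 fold change 0.56 ± 0.13 SE, adjusted p = 0.0505).

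**Figure D3:**
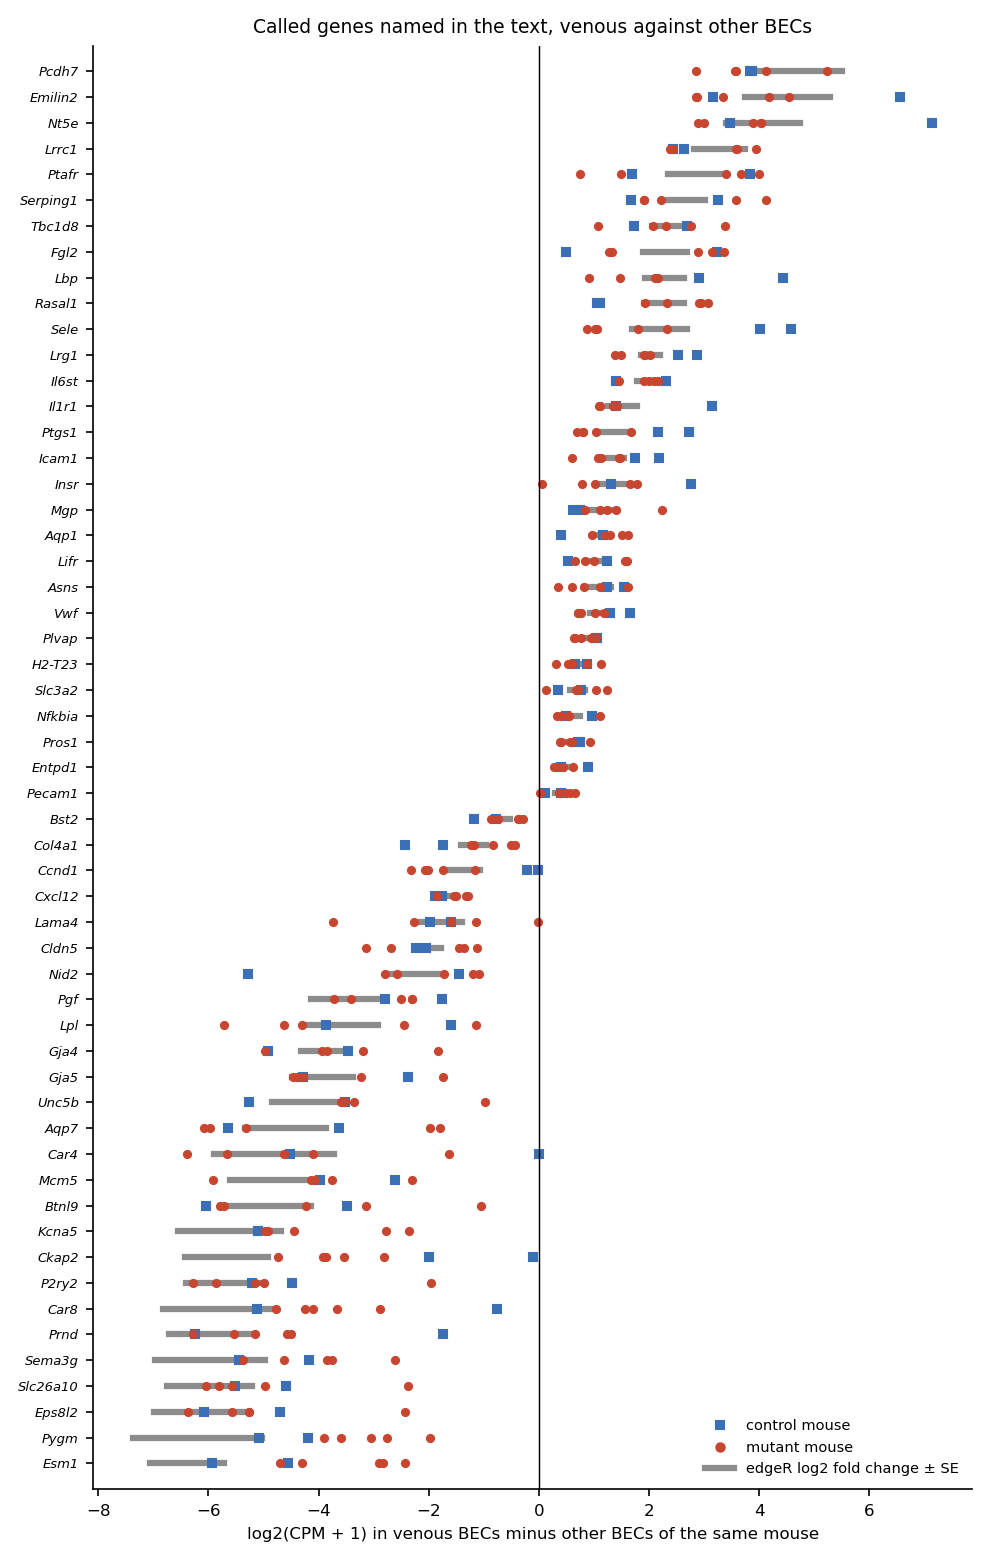
Difference in log2(CPM + 1) between venous and other BECs of the same mouse (x axis, 1 point per mouse, squares for 2 control and circles for 5 mutant mice) for the called genes named in the text, with edgeR's log2 fold change ± SE as a grey bar. Cxcl12 lies left of 0 and Lrg1, Il6st and Plvap right of 0 in all 7 mice, and for genes with few reads the points lie nearer to 0 than the bar because 1 CPM was added.

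The size of these differences depends on which BECs the venous ones are set against. Against the 638 other BECs that also met the Apln and mitotic limits, 686 of 13000 genes were called (5.28%, 2.61% higher and 2.67% lower), and 301 of the 443 genes were called in the same direction. Venous identity genes were then higher in 11 of 16, with Nr2f2, the venous fate factor COUP-TFII, Slco2a1, Ctsh, Bst1 and Ch25h added. Arterial genes were lower in 11 of 21, capillary genes in 13 of 18 and tip genes in 10 of 20. Lrg1 moved from a log2 fold change of 2.02 to 3.48, Vwf from 1.05 to 2.09 and Sele from 2.19 to 5.82 (adjusted p = 0.00174). Without the wells that may hold RNA of another cell 252 genes were called (1.91%, with 1% of genes higher and 0.911% lower), 213 of them shared and in the same direction, and no gene called in both reversed in any of the alternative settings.

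The Ackr1- and Selp-positive wells that the Apln limit set aside shared much of the venous profile. In the mutants, where they numbered 49–121 per mouse, their plain sums held 1932–3095 CPM of Vwf, 1289–2156 CPM of Lrg1, 265–469 CPM of Sele, 3655–5721 CPM of Plvap and 961–1375 CPM of Slco2a1. The same genes were at 1876–2587, 2278–2911, 256–630.3, 3875–5571 and 440.1–1254 CPM in the venous BECs of those mice. Lrg1 was lower in the Apln-positive wells with no overlap, whereas the ranges of the other 4 overlapped. Other genes set these wells apart. Nt5e was at 33.1–72.1 CPM in the Apln-positive and at 167–462 CPM in the venous wells of the mutants, Aqp1 at 1974–2732 and 3486–5766 CPM, Angpt2, the TIE2 ligand angiopoietin-2, at 12.9–88.9 and 234–419 CPM, and Mmp2, a gelatinase, at 2378–2997 and 779.6–1538 CPM. In controls only 8 and 3 such wells were found, and the order was the opposite for both genes. Angpt2 was at 106 and 459.5 CPM in the Apln-positive and 32.9 and 155 CPM in the venous wells of controls 1 and 2, and Mmp2 at 255 and 740.2 against 772 and 874 CPM. These sets were formed with Apln, and their differences were not tested.

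Whether the mutation goes with another difference in venous than in other BECs was tested as an interaction. Of 18757 genes, 2 were called (0.0107%), both with a smaller mutant effect in venous BECs, and 1500 had an unadjusted p under 0.05. Mmp2 (chr8:92827291-92853420) was at 763 and 857 CPM in venous BECs of the controls and 850.2–1672 CPM in those of the mutants, against 126 and 112 CPM and 1289.7–1657 CPM in the other BECs (interaction -2.89 ± 0.29 SE on the log2 scale, adjusted p = 0.0235). Slco2a1 (chr9:102988712-103096002) was at 862 and 639 and 481–1318 CPM in venous BECs, where the groups overlapped, and at 128 and 68.9 and 566–831 CPM in the other BECs (interaction -2.62 ± 0.26 SE, adjusted p = 0.0235). The other BECs of the mutants hold the Apln-positive wells described above. With other BECs inside the Apln and mitotic limits the interaction called 0 genes: Slco2a1 then had -0.49 and Mmp2 0.75 on the log2 scale (adjusted p = 0.954), and plain sums of those wells held 59.6–207 CPM of Slco2a1 and 43.8–243 CPM of Mmp2 over all 7 mice. Without control 1 the interaction called 114 genes, and without control 2 or mutant 1 or 2 it called 0. In counts simulated with known changes, the interaction test recovered 0%, 7.5% and 49.3% of changes of 1, 2 and 3 on the log2 scale.

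**Figure D4:**
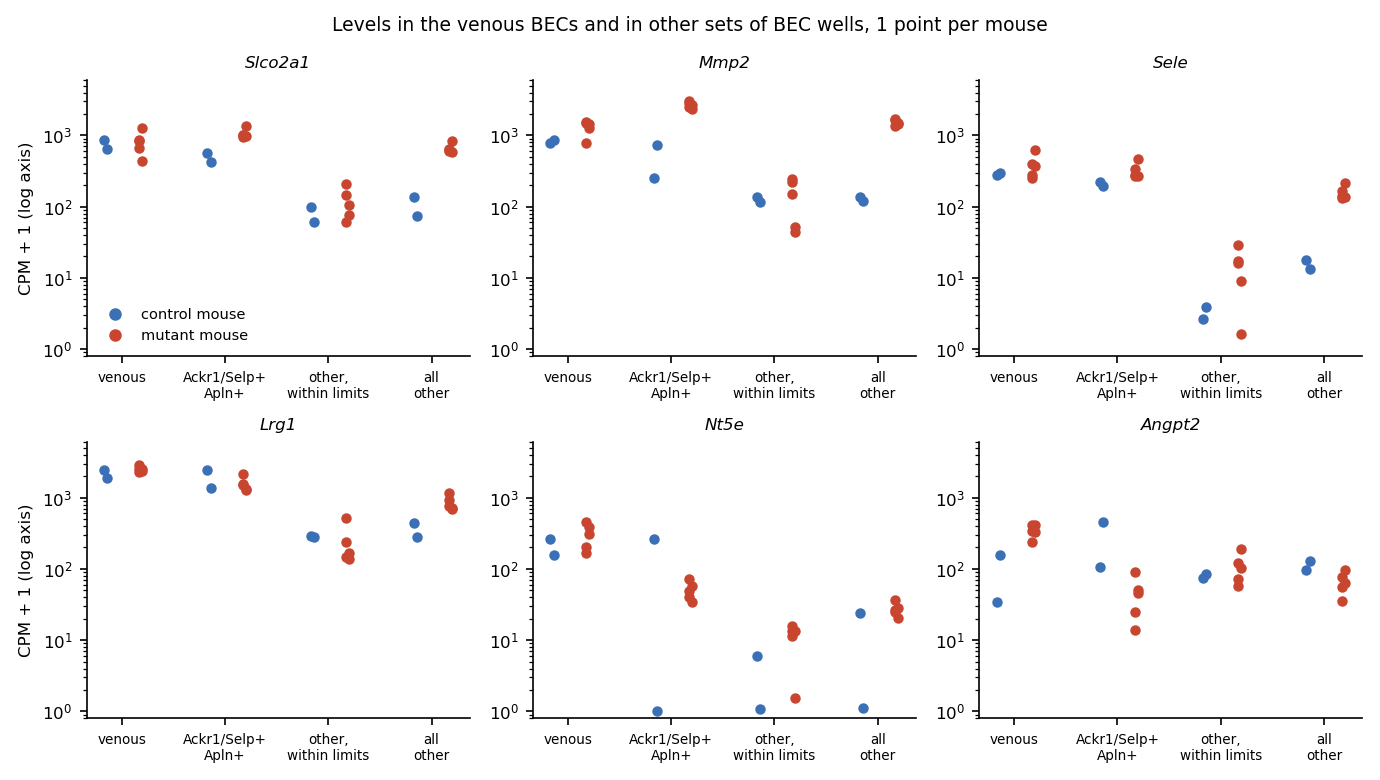
Levels of 6 genes (CPM + 1 of plain sums, log axis) per mouse in venous BECs, Ackr1- and Selp-positive BECs with Apln at 50 CPM or more, other BECs within the Apln and mitotic limits and all other BECs, with control mice in blue and mutant mice in red. Slco2a1, Mmp2 and Sele are high in both Ackr1- and Selp-positive sets and low in other BECs within the limits, and for these 3 genes the red points of all other BECs lie above the blue ones.

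Within venous BECs few genes were called between mutant and control mice. In counts simulated with known changes, this comparison recovered 0%, 11.9% and 29.9% of changes of 1, 2 and 3 on the log2 scale. Few calls therefore do not show that few genes differ. Of 13642 genes tested between the 5 mutant and 2 control sums, edgeR called 8 (0.0586%), of which 2 were higher (0.0147%) and 6 lower (0.044%) in the mutants. An unadjusted p under 0.05 was found for 1501 genes, and DESeq2 called 641, of which 487 were higher and 154 lower, so the balance of directions depends on the tool. In 16.8% of all genes the mutant and control mice did not overlap in either direction. Without control 1 the count was 22, without mutant 3 it was 2, without mutant 5 it was 6, and without control 2 or mutant 1, 2 or 4 it was 0. Levels in this comparison come from a separate scaling and differ slightly from those given above.

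Lipe (chr7:25379527-25398710), the hormone-sensitive lipase, was at 18.1 and 11.3 CPM in controls 1 and 2 and 202, 164, 125, 199 and 147 CPM in mutants 1–5 (log2 fold change 3.50 ± 0.47 SE, adjusted p = 0.0373). All mutants lay above both controls. Other BECs within the limits held 96.9–319 CPM of Lipe over all 7 mice, so that venous BECs of the controls stood below the other BECs of their own mice, and LECs held 6.23–37.4 CPM. Of the Lipe reads of venous BECs 66.1% in control 1 and 82.5% in control 2 came from 1 well, which in control 1 was the well with the fibroblast markers, against 18.9–32.3% in the mutants, where 11–30 wells per mouse held a read. Parp3 (chr9:106470322-106476949), an ADP-ribosyltransferase of DNA repair, was at 0.323 and 0.283 CPM in controls 1 and 2 and 40.8, 94.5, 36.3, 81.4 and 55.3 CPM in mutants 1–5 (log2 fold change 7.58 ± 1.07 SE, adjusted p = 0.0417). The controls had 3 reads in all and the mutants 2428, a ratio of CPM of 184 with a 95% counting interval of 63.0–895. That interval treats reads as independent and leaves out the spread between wells and between mice. Parp3 RNA lay in few wells, with a read in 4–18 venous wells per mutant mouse and 33.3–49.9% of the reads in 1 well. In other BECs of the controls Parp3 was at 14.2–21.6 CPM. Exons of Parp3 overlap Rrp9 and exons of Lipe a predicted gene on the opposite strand. Both genes kept their direction in the 21 alternative settings, from 6.40 to 11.44 for Parp3 and from 1.77 to 4.18 for Lipe on the log2 scale, and were called in 7 (Parp3) and 6 (Lipe) of them. The lowest value of Lipe, 1.77 (adjusted p = 0.194), came with the limit of 50 CPM. Leaving out any 1 of the 7 mice ended both calls, with adjusted p of 0.0678–0.145 for Parp3 and 0.0571–0.141 for Lipe.

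The 6 lower genes were the keratin gene Krt79, the proteoglycan genes Lum and Dcn, the procollagen protease gene Adamts2, the microfibril gene Mfap4 and Cpz, a carboxypeptidase gene that fell outside the rule for named genes and was named after its value was seen. Dcn was at 360.4 and 591 CPM in controls 1 and 2 and 1.11, 5.11, 0.390, 3.56 and 4.81 CPM in mutants 1–5 (log2 fold change -7.31 ± 0.75 SE, adjusted p = 0.0179), and Lum at 119 and 318 CPM in controls 1 and 2 and 0.159, 0, 0, 0.162 and 0.813 CPM in mutants 1–5 (log2 fold change -9.56 ± 1.06 SE, adjusted p = 0.0184). In controls 1 and 2, 88.0% and 98.1% of the Dcn reads and 96.2% and 99.3% of the Lum reads came from 1 well, the well that also carried the fibroblast markers (28161 and 41701 CPM of the list). Dcn also differed outside venous BECs: as plain sums, the other BECs held 78.3–177 CPM in control and 0.775–9.03 CPM in mutant mice. Krt79 was at 188 and 11.6 CPM in controls 1 and 2 and 0, 0.196, 0, 0 and 0.136 CPM in mutants 1–5, with 99.2% of the reads of control 1 in 1 well. Without the wells that may hold RNA of another cell none of the 8 genes was called. Controls 1 and 2 then kept only 8 and 11 venous wells. Parp3 then had a log2 fold change of 11.44 and Lipe of 3.70 (adjusted p = 0.0697 for both), while Dcn stood at -2.88, Adamts2 at -0.66 and Mfap4 at 0.29. In that setting 9 other genes were called higher (0.0689%). Those 9 were not called with all wells, and no gene is named from them.

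Of the 16 lists, only the matrix list had a called gene (Dcn). Uncalled genes named here and in the next paragraphs beyond the most abundant of a list were chosen after their values were seen. No venous identity gene was called. Lrg1 was at 2426 and 1928 CPM in controls 1 and 2 and 2897, 2507, 2603, 2451 and 2207 CPM in mutants 1–5 (log2 fold change 0.22 ± 0.17 SE, adjusted p = 0.656), and Vwf at 2446 and 1424 CPM in controls 1 and 2 and 2575, 2574, 2029, 2102 and 1818 CPM in mutants 1–5 (log2 fold change 0.20 ± 0.23 SE, adjusted p = 0.797), and in neither gene did the groups separate. Over the 15 tested identity genes the median log2 fold change was 0.31, and all mutants lay above both controls in 4 (Ephb4, Plvap, Adgrg6 and Ch25h), against 8.24% of all genes. For Plvap the groups barely separated (3685–3745 CPM in control and 3755–5546 CPM in mutant mice).

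Of 17 adhesion genes 8 had all mutants above both controls (background 8.24%), none of them called, with a median log2 fold change of 0.45 over the list. Icam1 was at 486 and 492 CPM in controls 1 and 2 and 759.8, 801, 874, 1068 and 549 CPM in mutants 1–5 (log2 fold change 0.73 ± 0.27 SE, adjusted p = 0.366). Esam was at 1297–1361 CPM in control and 1665–2273 CPM in mutant mice (log2 fold change 0.65 ± 0.18 SE, adjusted p = 0.241), and Mcam (CD146) at 140.5–197 CPM in control and 387–466 CPM in mutant mice (log2 fold change 1.31 ± 0.27 SE, adjusted p = 0.13). Sele did not separate the groups (277–295 CPM in control and 254–631 CPM in mutant mice, log2 fold change 0.45 ± 0.36 SE, adjusted p = 0.682). The chemokine list had a median of 1.03 over 14 genes. Ackr3 was at 21.9 and 15.9 CPM in controls 1 and 2 and 151, 142, 88.3, 89.4 and 144 CPM in mutants 1–5 (log2 fold change 2.70 ± 0.52 SE, adjusted p = 0.104), and Cxcl12, its ligand, at 1077 and 1030.5 CPM in controls 1 and 2 and 592, 639, 565, 406 and 469 CPM in mutants 1–5 (log2 fold change -0.98 ± 0.22 SE, adjusted p = 0.171). Cxcl12 was the only one of the list with all mutants below both controls, which 8.6% of all genes were. Among 25 cytokine receptor and NF-kB genes the median was 0.59. Il6st overlapped between the groups, with mutant 5 below both controls (1542 and 1831 CPM in controls 1 and 2 and 3228, 2752, 2749, 3438 and 1144 CPM in mutants 1–5).

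Angpt2, which is stored in Weibel-Palade bodies and antagonises TIE2, was at 32.6 and 157 CPM in controls 1 and 2 and 341, 418, 433, 343 and 227 CPM in mutants 1–5 (log2 fold change 1.89 ± 0.55 SE, adjusted p = 0.262). Its partner receptor gene Tie1 was at 608 and 388 CPM in controls 1 and 2 and 1488, 1155, 1049.7, 1042 and 1194 CPM in mutants 1–5 (log2 fold change 1.25 ± 0.25 SE, adjusted p = 0.119). Both separated the groups without being called. Over all genes 8.24% had all mutants above and 8.6% all mutants below both controls. Of 22 tone and permeability genes 5 had all mutants higher (Ece1, Plvap, Cav1, Tie1 and Angpt2), and the median was 0.48. Of 35 PI3K and FOXO genes 4 had all mutants higher and 5 all mutants lower. The latter held 3 Kruppel-like factors, of which Klf2, a factor induced by blood flow, was at 386 and 328 CPM in controls 1 and 2 and 106, 152, 127, 108 and 106 CPM in mutants 1–5 (log2 fold change -1.57 ± 0.29 SE, adjusted p = 0.0979). Immediate early genes had a median of -0.57, and 6 of 18 had all mutants lower (Fos, Jun, Junb, Ier3, Hspb1 and Socs3). Fos was at 905 and 1672 CPM in controls 1 and 2 and 553, 729, 263, 509 and 716 CPM in mutants 1–5 (log2 fold change -1.22 ± 0.36 SE, adjusted p = 0.264), and Socs3, a feedback inhibitor of cytokine signalling through gp130, at 241 and 302 CPM in controls 1 and 2 and 61.9, 42.8, 93.5, 18.6 and 108 CPM in mutants 1–5 (log2 fold change -2.06 ± 0.55 SE, adjusted p = 0.241). Of 32 matrix genes 10 had all mutants higher, among them Eln, elastin (359.9–550.4 CPM in control and 762–2086 CPM in mutant mice, adjusted p = 0.216), and Col4a1 (136–337 CPM in control and 401–829.6 CPM in mutant mice), and 5 all mutants lower, among them Dcn, Col1a2 and Col3a1, which are fibroblast markers.

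In the remaining lists no gene was called either. The medians were 0.10 for Weibel-Palade genes, 0.23 for hemostasis, -0.20 for arterial, 0.11 for capillary and 0.73 for tip genes, 0.07 for PI3K and FOXO genes, 0.04 for metabolism, 0.32 for G1 and replication and 0.23 for antigen presentation, against 0.05 over all genes. Of 36 metabolic genes, set against 8.24% of all genes higher and 8.6% lower, 6 had all mutants higher, among them Ldha, lactate dehydrogenase (375–584 CPM in control and 759–1162 CPM in mutant mice), and 5 all mutants lower. Ccnd1 was at 136–305 CPM in control and 45.9–98.7 CPM in mutant mice (log2 fold change -1.64 ± 0.44 SE, adjusted p = 0.241).

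Plate series and the choice of limits bear on this comparison. With plate series as a term 0 genes were called, and with mutant 5 alone against the controls, all on plates of 1 series, 2 genes were called. Within that series Lipe was at 147 against 18.1 and 11.3 CPM, Ackr3 at 144 against 21.9 and 15.9 CPM and Cxcl12 at 469 against 1077 and 1030.5 CPM. With the Apln and mitotic limits lifted, so that most mutant wells were Apln-positive, 552 of 16849 genes were called (3.28%), 382 higher (2.27%) and 170 lower (1.01%), and 7 of the 8 genes were among them.

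**Figure D5:**
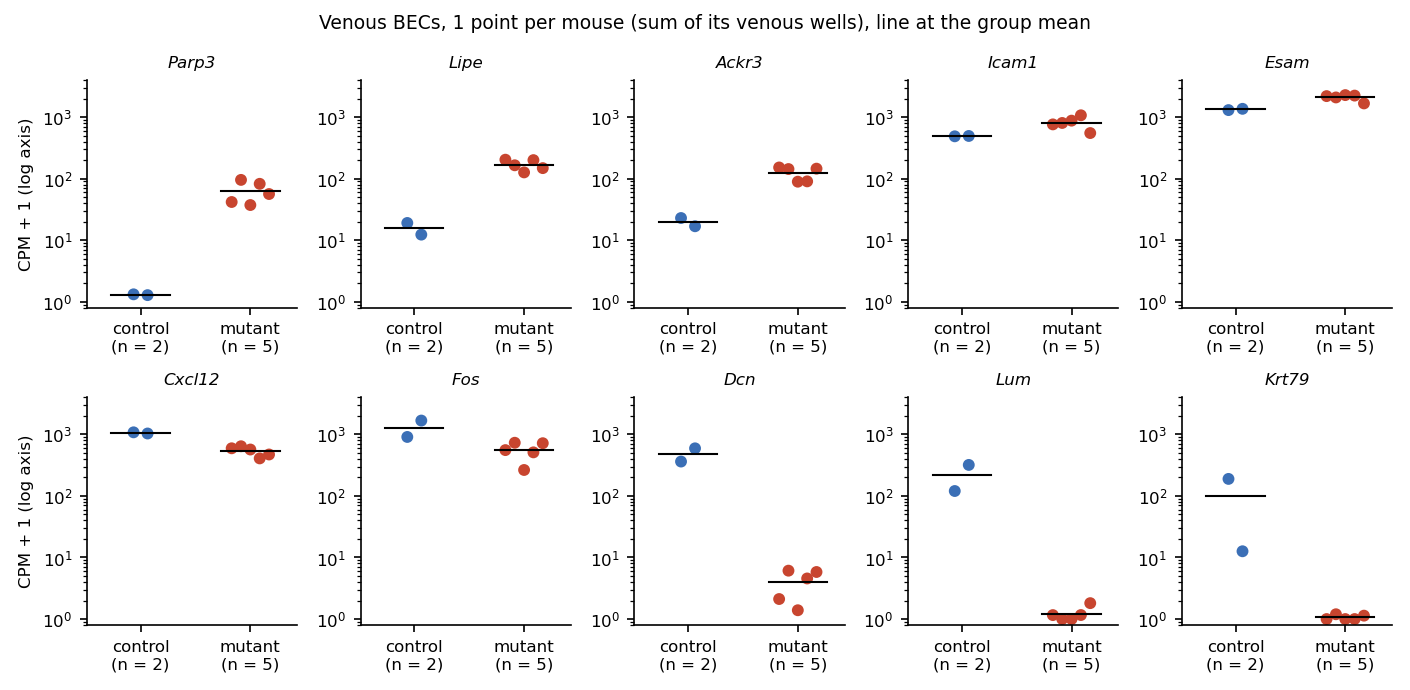
Levels of 10 genes in venous BECs (CPM + 1, log axis), 1 point per mouse (sum of its venous wells) for 2 control and 5 mutant mice, with a line at the mean of the group. Parp3, Lipe, Dcn, Lum and Krt79 were called, the other 5 were not, and none of the 10 overlaps between the groups.

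Shares of wells with a read differed from LECs as well for some genes, of which Lepr and Tacr1 were chosen after their values were seen. After thinning, Nt5e was found in a median over mice of 43.8% of venous wells, 12.2% of other BECs and 4.36% of LECs, Icam1 in 78.9%, 55.5% and 28.6%, and Vwf in 100.0%, 87.3% and 35.1%. Other called genes were common in LECs too. Lrg1 was found in 100%, 81.8% and 80.7%, and Il6st in 100%, 88.4% and 89.0%. Plvap was found in 100%, 99.0% and 93.7%, and Aqp1 in 100%, 96.1% and 85.2%. Lepr, the leptin receptor gene, was found in 81.6%, 39.1% and 23.6%, and Tacr1, a substance P receptor gene, in 62.5%, 25.5% and 4.09%. Unthinned, the shares in venous BECs, other BECs and LECs were 56.3%, 25.7% and 15.8% for Nt5e, 94.7%, 85.3% and 74.7% for Icam1, 84.2%, 55.3% and 47.3% for Lepr and 63.2%, 46.7% and 19.6% for Tacr1. Selp was at 2.07–7.51 and Ackr1 at 0.719–4.62 CPM in LECs, well under the limit of 100 CPM.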

How the data were processed

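Single cells from ears of 5 mutant and 2 control mice were analysed. The authors deposited whole-number read counts per gene and well, and gene lengths. Per their methods and the submitters' processing notes, reads were aligned with TopHat2 (version 2.1.1) to GRCm38 with the chicken PIK3CA sequence added, duplicates were removed with SAMtools (version 0.1.18), and reads were counted with featureCounts. The annotation version is not given in the sources used here. Duplicate removal without molecular barcodes limits the counts of abundant genes.

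Of 3456 wells with 46609 features (92 of them ERCC spike-ins, left out), 3248 were kept. No doublet caller was run, and wells with markers of another cell were left out as an alternative. The same 384 well labels occur on all 9 plates, being plate positions, and 0 wells were identical. CPM are reads per 1000000 non-ERCC reads of a well or sum. In the comparisons they use TMM-scaled library sizes, and levels called plain sums are unscaled.

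Counts were summed per mouse, since cells are not replicates, and tested with edgeR (version 4.0.16, TMM, filterByExpr, quasi-likelihood, Benjamini-Hochberg adjusted p under 0.05) in R (version 4.3.3), with the mouse as a block for venous against other BECs. All adjusted p-values in the text come from this test unless DESeq2 (version 1.42.0) is named. Scripts were tested on simulated data. Shares used an exact permutation test over mice, with 21 splits. Gene positions are those of GENCODE vM21 on GRCm38, in which 46005 of 46517 Ensembl identifiers were found.

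Named genes were up to 10 called genes per direction with the largest change, a mean log2 CPM of at least 3, a read in at least 10% of wells and, between mice, no overlap or the same sign in all 7. Up to 4 called and the 2 most abundant uncalled genes of each of 16 lists were added. Members, lists and rule were chosen with earlier results of these data known. Alternatives changed the limits, wells, mice, scaling, filter, test and depth.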

Additional observations from a re-analysis of the deposited data

Results flagged for a closer look

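Of 109 sets of values checked over the 5 mutant mice, 16 had 1 mouse far from the other 4 by Dixon's test. All 16 were venous levels of genes. The test was at the 95% level, where chance gives about 1 in 20. In mutant 1 the highest values were those of Pygm (1.21 CPM), Slc26a10 (10.9 CPM), Prnd (2.42 CPM), Ckap2 (1.21 CPM), Btnl9 (30.4 CPM), Car4 (7.60 CPM), Mcm5 (12.1 CPM) and Tie1 (1616 CPM). For the first 7 of these the other mutants held 0–2.41 CPM, and 54.0% of the Btnl9 reads of mutant 1 came from 1 well. In mutant 5 Eps8l2 (10.8 CPM), Gja5 (30.8 CPM), Lum (0.813 CPM) and Ephb4 (641 CPM) were highest and Esam (1707 CPM) and Cd34 (1183 CPM) lowest. Mutant 5 is the only mutant on the plate series of the controls. P2ry2 was highest in mutant 2 (18.9 CPM) and Col4a2 lowest in mutant 3 (311 CPM, as scaled among venous sums only). The genotype effect differed between venous and other BECs for Mmp2 (-2.89 on the log2 scale) and Slco2a1 (-2.62), by the interaction test given above. Neither was called when the Apln-positive and mitotic wells were left out of the other BECs.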

How the results depend on the processing

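The share of venous BECs in mutant minus control mice stayed positive, from 1.31 to 3.79 points with 1 mouse left out (without mutant 1 and without control 1), and at 1.46–3.37 points with other limits, plates, depth or wells, and the denominators that moved it are given above. Venous against other BECs gave 303 calls with a limit of 50 CPM (58.4% higher), 686 against other BECs within the Apln and mitotic limits, 252 without possible mixed wells, 2028 with DESeq2 (31.0% higher), 796 without the Apln and mitotic limits, 318 without an expression filter (108 higher and 210 lower), 549 in wells with both Ackr1 and Selp at 50 CPM (35.5% higher) and 183–381 with 1 mouse left out. Without the mouse as a block (no replicate block) 308 genes were called, 248 of them shared. The median log2 fold change of all genes was 0.05 there and -0.64 without the filter.

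Mutant against control gave 1 call with a limit of 200 CPM, 641 with DESeq2, 49 without a filter, 2 in thinned wells, 0 with plate series as a term, 2 within 1 plate series, 552 without the Apln and mitotic limits, 0 with both genes at 50 CPM, and 0–22 with 1 mouse left out. Mfap4 went to 0.29 without possible mixed wells. The interaction gave 0 calls with a limit of 50 CPM, 1 with 200 CPM, 0 with first plates, 99 without mixed wells, 794 with DESeq2, 3 with DESeq2 size factors in edgeR, 4 without a filter, 14 in thinned wells, 0 against other BECs within the limits, 3 with both genes at 50 CPM, and 0–114 with 1 mouse left out. Mmp2 stood at 0.75 against other BECs within the limits. The causes were not tested.

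A fit with the replicate number as a block (pairing controls 1 and 2 with mutants 1 and 2) called 6 genes, 2 of them shared. Deviations of same-numbered mice correlated at 0.04 over 13642 genes. With 2 controls the deviations of one mirror those of the other, so this value cannot decide whether the numbers pair the mice. Control 1 was an untreated C57BL/6J mouse and the labels name no litters, so no pairing by number was used in the main test. Venous sums from 3576210 reads upward and 16–48 wells limit the precision for genes found in few wells. The settings without the Apln and mitotic limits and with both genes at 50 CPM were added after the data were seen.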
